A study of Mus musculus with 14 samples.

Results

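Residual fat cell formation was followed in 3T3-L1 cells that carried a retrovirus for SETD5. The line 3T3-L1 consists of mouse preadipocytes of fibroblast shape, which fill with fat after a hormone mixture. The members were the 5 arrays of these cells at 96 and 192 h of differentiation (the late hours) and at 0, 12 and 24 h (the early hours), out of 14 arrays in all, and late was compared with early. The SETD5 was tagged with V5 and expressed from a retroviral LTR promoter that the methods call weak, in a stably transduced line, and the control line carried the empty virus. The study made more than 1 SETD5 line, and the one with a moderate level of the protein served wherever no other is named. Both lines were left confluent, then received insulin, dexamethasone and isobutylmethylxanthine for 48 h and insulin alone after that, so the late arrays came from cells no longer in the mixture. Each virus and hour had 1 array, so hours stood in for replicates and the spread of a window includes what changed between its hours. Whether the arrays came from separate cultures is not stated, and SETD5 cannot be told apart from any other difference between the lines.

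Fat cell formation runs in stages. The mixture first raises the factors C/EBPβ and C/EBPδ and sends confluent cells through further divisions, after which PPARγ and C/EBPα switch on genes for taking up, storing and releasing fat and for the hormones that fat cells secrete. Over the same days the fibroblast normally loses much of its actin fibre system and rebuilds the matrix around it. SETD5 is a SET domain protein that joins a corepressor complex with NCoR and HDAC3. The arrays show how far this programme ran in cells transduced with SETD5.

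Values are array intensities on a scale on which each array has a trimmed mean of 100, and differences are log2(intensity + 16), late minus early, with limma's standard error (SE). A gene was tested if its probe set reached 50 on at least 2 of the 5 arrays, which left 8498 of 18193 genes. The median intensity of these genes was 194 to 215 over the 14 arrays. Of the 1063 genes on 41 lists of pathways and markers, 739 were tested, 213 were below the limit and 111 had no probe set of their own. The Setd5 probe set gave 350.1 and 321 at the late hours and 339.8, 239 and 254 at the early hours with the SETD5 virus, and 378 at 0 h with the empty virus. The sources used here do not tell where its probes lie, so it does not check the viral transcript. All 6 fibroblast markers (Pdgfra, Pdgfrb, Thy1, Col1a1, Col3a1 and Vim) were measured at every hour. The defining markers of macrophages, endothelium, epithelium, skeletal muscle and brown fat did not pass the filter, with a highest value of 46.3 over all 7 SETD5 arrays. Summed over the list, the 4 macrophage markers gave 53.0 to 65.7 late and 29.2 to 49.0 early, and the 3 epithelial markers 47.2 to 55.2 late and 31.7 to 49.3 early. Of the bone and cartilage markers only Sox9 was tested, at 173 and 117 late and 217, 195 and 178 early.

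Late against early, the SETD5 cells gave 3 genes called higher out of 8498 (0.0353%) and none lower (0%) by limma, with 465 and 517 at an unadjusted p under 0.05. The 3 were Fabp4, a fatty acid carrier of fat cells, Adipoq, the hormone adiponectin, and Thrsp, a factor of fat synthesis. The count depended on each early array. Without 0 h, 590 genes (6.94%) were called higher and 426 (5.01%) lower, whereas without the 12 h or the 24 h array none was called (270 and 232 higher, 339 and 295 lower at an unadjusted p under 0.05), without 96 h 7 and without 192 h 4, all higher. The adjusted p of Fabp4, Adipoq and Thrsp was 0.0961, 0.156 and 0.244 without 12 h, and 0.0563, 0.0915 and 0.152 without 24 h. Across the tested genes the 0 h array correlated more with the 96 and 192 h arrays (Pearson's r 0.943 and 0.949) than with the 12 and 24 h arrays (0.885 and 0.897), which were alike among themselves (0.954), as were the late arrays (0.965). These are correlations over genes, which are not independent replicates. Windows that did not overlap are therefore given as well: 1307 genes (15.4%) had both late values above all early values, and 1571 (18.5%) had both below. In empty virus cells the same test called 30 genes higher (0.353%) and none lower (0%; 680 and 648 at an unadjusted p under 0.05). The difference between the viruses in this change, with hour as a block, was called for 347 genes as more positive in SETD5 cells (4.08%) and for 478 as more negative (5.62%). Each hour bore on these counts, which were 31 and 115 without 0 h, 35 and 123 without 12 h, 74 and 183 without 24 h, 1221 and 1044 without 96 h and 124 and 301 without 192 h. Without the hour block no gene was called (58 and 282 at an unadjusted p under 0.05).

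Part of the fat cell programme was present at the late hours. On 8 lists of fat cell genes (transcription factors, fatty acid uptake, lipid droplets, triglyceride assembly, fatty acid synthesis, lipolysis, secreted products, insulin response), 107 of 163 genes were tested, of which 13 reached 50 at late hours alone and could pass only through them. Of the 107, 3 were called higher, all among those 13. Late values lay above all early values for 44 and below for 11, beside 15.4% and 18.5% of all genes. The median log2 difference was 0.38, beside 0.02 over all genes tested. In empty virus cells their median was 0.84. Over the other 94 genes none was called in SETD5 cells, 31 had late values above and 11 below all early ones, and the medians were 0.23 in SETD5 cells and 0.75 in empty virus cells, a split made after seeing the data. The change was called more negative with SETD5 for 44 of the 107 and more positive for 1, beside 5.62% and 4.08% of all genes. For 49 of them the empty virus difference was 1 or more, and the remaining share, the SETD5 difference as a percent of the empty virus one, had a median of 50.3% (quartiles 40.9% and 66.7%). The filter read SETD5 arrays alone, so genes that stayed under the limit in SETD5 cells were left out of this share. In a count added after seeing the data, another 8 listed genes passed the same limit in empty virus cells alone, 7 of them with an empty virus difference of 1 or more and shares of 23.4% to 50.6%, and with them the median over 56 genes was 49.3%. Empty virus cells first reached the 192 h level of SETD5 cells at 0 h for 3 of the 49 genes, at 12 h for 3, at 24 h for 3, at 36 h for 4, at 48 h for 9, at 96 h for 20 and at 192 h for 6, and never for 1. The remaining share was 80% or more for 6 of the 49 and under 25% for 7, and 36 of the 49 were higher at 192 h than at 96 h in SETD5 cells. The share is on the log2 scale with the offset and is given as a description.

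Some of the most abundant fat cell products kept a large share of the empty virus difference. Fabp4 was at 3628 and 6297 at 96 and 192 h in SETD5 cells, against 24.4, 16.2 and 11.4 at 0, 12 and 24 h, and at 7526 and 9162 at the late hours in empty virus cells. Its late values lay far above every early one (log2 difference 7.19 ± 0.30, n = 2 against 3 hours, adjusted p = 0.00392), and the remaining share was 95.3%. Adipoq was at 1979.5 and 5261 at the late hours in SETD5 cells, against 0.8, 4.5 and 2.0 at the early hours, and at 5251 and 7276 late in empty virus cells. Adipoq rose by 7.46 ± 0.41 (adjusted p = 0.00931), a remaining share of 88.7%. The difference between viruses was -0.35 ± 0.26 for Fabp4 (adjusted p = 0.408) and -0.95 ± 0.26 for Adipoq (adjusted p = 0.0533), neither called. Other probe sets of Fabp4 gave smaller late minus early differences of 2.05 and 5.82, and one of Thrsp 2.97. The highest value in the whole table was 9698, so both genes were near the top of the scale in empty virus cells, and whether the arrays still tell levels apart there was not tested. Lpl, the lipase that frees fatty acids from lipoproteins, was at 3591 and 6038 late and 1649.5, 1881 and 1334 early in SETD5 cells, and was called without the 0 h array (log2 difference 1.55 ± 0.32, adjusted p = 0.0397), with a remaining share of 69.4%. Angptl4, an inhibitor of that lipase, was at 723 and 492 late against 165, 124 and 315 early, with a log2 difference of 1.59 ± 0.40 beside 1.42 ± 0.51 in empty virus cells, a difference between viruses of 0.17 ± 0.22 that was not called (adjusted p = 0.644). Vldlr, a lipoprotein receptor, had late values of 1622 and 1435 against 924, 481 and 789.7 early, and Ppp1r3c, a glycogen targeting subunit, 1628 and 2085 against 1029, 239 and 812. Their late values too lay above all early ones, and their shares were 94.1% and 92.4%.

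**Figure D1:**
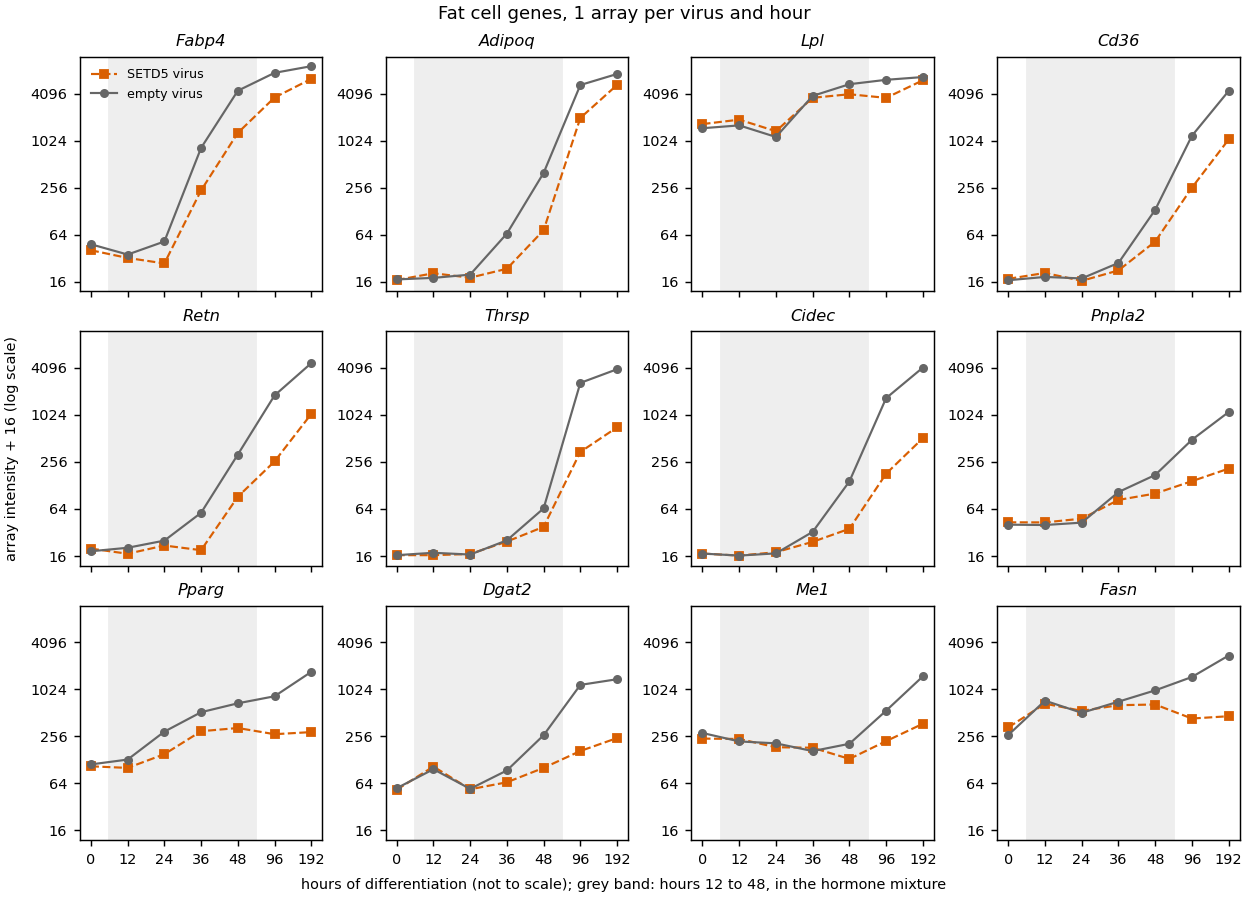
Array intensity plus 16 on a log scale (y axis) against the hour of differentiation (x axis, categories) for 12 fat cell genes, ordered from the largest to the smallest remaining share. Orange squares joined by dashes are SETD5 cells and grey circles are empty virus cells. Fabp4 ends at 6297 in SETD5 cells and 9162 in empty virus cells, while Fasn ends at 447 and 2751.

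A second group was switched on in SETD5 cells, mostly at levels well under those of empty virus cells. Thrsp rose by 4.90 ± 0.32 (adjusted p = 0.0167), with values of 328 and 694 at the late hours against 0.4, 0.4 and 1.0 at the early hours, beside 2616 and 3919.8 late in empty virus cells. Its change was smaller than there (difference between viruses -2.68 ± 0.17, adjusted p = 0.000229). Cd36, a fatty acid transporter, was at 239.5 and 1042 late against 1.4, 4.7 and 0.4 early in SETD5 cells, and at 1163 and 4403 late in empty virus cells. Its log2 difference was 4.85 ± 0.58 (adjusted p = 0.165), called without the 0 h array (adjusted p = 0.0231) and without the 96 h array (adjusted p = 0.00835), and the change differed between the viruses by -2.18 ± 0.14 (adjusted p = 0.000283). Retn, the hormone resistin, had 244 and 1038 late against 3.9, 1.1 and 5.8 early, and Cidec, a lipid droplet fusion protein, 165 and 499 against 1.2, 0.2 and 1.9. Both were near 0 at the early hours, below every late value. Retn differed between the viruses by -2.37 ± 0.21 (adjusted p = 0.00101) and Cidec by -3.12 ± 0.14 (adjusted p = 6.84e-05), the most negative value among genes with a mean of 100 or more in some window. Car3, a carbonic anhydrase abundant in fat, reached 1902 at 192 h after 202 at 96 h, against 5.1, 4.4 and 11.9 early, so most of its level came with the last array. Sult1a1, a sulfotransferase, ran the other way within the late window, with 1321 at 96 h and 332 at 192 h, against 27.8, 32.1 and 25.7 early. The difference between viruses was -1.73 for Sult1a1, not called (adjusted p = 0.0752). Rarres2, the adipokine chemerin, had 220.2 and 706 late against 56.1, 22.3 and 2.8 early, and Plaat3, a phospholipase of fat cells, 502 and 1525 against 158, 38.1 and 39.6. The remaining shares of these genes lay between 57.1% for Cidec and 72.2% for Car3. Agtr2, an angiotensin receptor, was an exception, with 772 and 1139 late in SETD5 cells, above the 437 and 909.6 of empty virus cells. In SETD5 cells it was already at 1065 at 48 h, against 17, 12.1 and 109 early.

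Pparg, the nuclear receptor at the centre of fat cell formation, was at 256 and 274 at the late hours in SETD5 cells, against 89.7, 84.8 and 135 early. Over the 7 hours it read 89.7, 84.8, 135, 281, 311, 256 and 274, so it reached a plateau by 36 h, while empty virus cells went on to 817 and 1695. Its log2 difference was 1.26 ± 0.24 in SETD5 cells, not called with all arrays (adjusted p = 0.351) but called without the 0 h array (adjusted p = 0.0397), and the change differed between the viruses by -1.62 ± 0.32 (adjusted p = 0.0225). Cebpa, its partner factor, did not pass the filter: it read 18.1, 19.3, 28.8, 45.6, 53, 38.7 and 60.6 over the 7 hours in SETD5 cells and 144 and 230.3 at the late hours in empty virus cells. Of the 20 listed late factors, 13 were tested. Late values lay above all early ones for 6, beside 15.4% of all genes, and 5 were called more negative with SETD5, beside 5.62%. Ppargc1b, among the 6, reached 50 at late hours alone and could pass the filter only through them. With 1 hour left out at a time, the adjusted p of Pparg between viruses reached 0.0898 without 12 h. Among the factors, Ppargc1b, a coactivator, was at 62.4 and 92.2 late against 31.7, 18.3 and 1.0 early, and Lpin1, a phosphatidate phosphatase that also serves as a coactivator, at 151 and 136 against 74.5, 37.9 and 66.8. Ebf1, a factor that acts before and beside Pparg, gave no call between the viruses (0.33 ± 0.18, adjusted p = 0.248), with 398 and 488 late against 334, 110.2 and 185 early.

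A pair of genes of the fat lists are shown with the 250 bases before their RefSeq start in the build GRCm38.p6, because their change differed between the viruses and the window held the letters TTGCNNAA, a core that C/EBP factors can bind, on either strand (capitals). Tecr, another gene of these lists, met both conditions, with a match starting 107 bases before its start, and is not shown. The Cidec window is chr6:113434765-113435014 on the - strand, with the motif starting 198 bases before the start, and the Pparg window is chr6:115421816-115422065 on the + strand, with matches starting 215 and 16 bases before it. Of all 32851 windows in the RefSeq table, 9.56% held the motif. The tested genes of the fatty acid, triglyceride, droplet, lipolysis and factor lists had 87 windows, of which 7 held it. These came from 7 of the 57 genes with a window. A match is a description of the letters alone.
Cidec: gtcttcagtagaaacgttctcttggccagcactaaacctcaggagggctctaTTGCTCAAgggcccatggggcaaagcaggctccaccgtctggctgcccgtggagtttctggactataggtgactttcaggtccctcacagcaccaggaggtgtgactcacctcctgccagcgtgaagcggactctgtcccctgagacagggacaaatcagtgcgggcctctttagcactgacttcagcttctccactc
Pparg: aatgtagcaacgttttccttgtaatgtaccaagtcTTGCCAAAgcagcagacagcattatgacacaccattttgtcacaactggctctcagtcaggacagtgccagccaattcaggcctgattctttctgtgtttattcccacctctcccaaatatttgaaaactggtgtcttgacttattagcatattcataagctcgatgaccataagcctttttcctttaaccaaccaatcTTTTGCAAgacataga

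The enzymes that make and store triglyceride were present late at levels mostly below those of empty virus cells. Of 14 tested members of triglyceride assembly, 8 had late values above all early ones, beside 15.4% of all genes. Gpd1 and Gpat3, among the 8, reached 50 at late hours alone and could pass the filter only through them. Between the viruses 8 were called more negative with SETD5, beside 5.62% of all genes. The median difference was 0.66 in SETD5 cells and 1.55 in empty virus cells. Gpd1, which makes the glycerol backbone, was at 66.2 and 336 late against 9.9, 2.4 and 4.5 early in SETD5 cells, and at 439 and 2402 late in empty virus cells (difference between viruses -2.85 ± 0.15, adjusted p = 0.000105). Dgat2, which adds the last fatty acid, was at 149.9 and 227 late against 37, 88.9 and 37.7 early in SETD5 cells, and at 1148 and 1359.9 late in empty virus cells (difference between viruses -2.67 ± 0.15, adjusted p = 0.000142). In both genes the late SETD5 values exceeded every early value and stayed below the late empty virus values. Dgat1, Agpat2 and Gpat3, other acyltransferases of the pathway, kept 29.1%, 44.8% and 53.6% of the empty virus difference. Among 11 droplet genes 4 were called more negative with SETD5, beside the same 5.62%. Bscl2, the droplet assembly protein seipin, was at 71.9 and 105 late against 70.1, 94.8 and 90.3 early, with 175 and 753 late in empty virus cells, a share of 1.81%, and Fitm2, which partitions fat into droplets, kept 16.5%. Plin4, a droplet coat protein, was at 405 and 441 late against 149.7, 44.3 and 53.7 early and kept 77%, with a difference between viruses of -0.69 ± 0.30 that was not called (adjusted p = 0.173). Pnpla2, the main triglyceride lipase, had 129 and 194 late against 27.2, 27.1 and 32.1 early, beside 476 and 1098 late with the empty virus, and Lipe, the hormone-sensitive lipase, was below the filter at 42.8 and 86.4 late.

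Genes of de novo fatty acid synthesis stayed near their early level in SETD5 cells. Of 19 tested members, 2 had late values above and 5 below all early ones, beside 15.4% and 18.5% of all genes. Of the 19, 10 were called more negative with SETD5, against 5.62% of all genes. The median difference was -0.12 in SETD5 cells and 0.59 in empty virus cells. Fasn, fatty acid synthase, was at 416 and 447 late against 317, 653 and 526 early in SETD5 cells, inside the early range, and at 1454 and 2751 late in empty virus cells. The change differed by -2.27 ± 0.24 (adjusted p = 0.00257). Me1, malic enzyme, had 206 and 354 late against 223, 221 and 169 early, and Slc25a1, the mitochondrial citrate carrier, 114 and 147 against 126, 112 and 96, both with overlapping windows. Scd1, the stearoyl-CoA desaturase, was high from 12 h on and gave 597, 2942, 1926, 2669, 2333, 1194 and 3547 over the 7 hours in SETD5 cells, with 5668 and 6957 late in empty virus cells. Thrsp, which stands on the same list, was an exception described above. Acss2 also had late values above all early ones, at 98.2 and 101 against 82.7, 54.3 and 67.3 in SETD5 cells. Noct, a nuclear and mitochondrial phosphatase, was at 97.1 and 102 late and 93.9, 165 and 117 early in SETD5 cells and at 635 and 698 late in empty virus cells, a difference between viruses of -2.61 ± 0.13 (adjusted p = 0.0001).

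Mitochondrial lists had lower medians in SETD5 than in empty virus cells. In the citric acid cycle and pyruvate dehydrogenase list, 23 of 28 genes were called more negative with SETD5 (5.62% of all genes), with a median late difference of 0.05 in SETD5 cells and 0.88 in empty virus cells. In SETD5 cells 8 of them had late values above all early ones, beside 15.4% of all genes, and 2 below. Pcx, pyruvate carboxylase, was at 506 and 503 late against 105, 213 and 460.1 early in SETD5 cells and 1645 and 2876 late in empty virus cells. Pdhb, a pyruvate dehydrogenase subunit, had 958 and 984 late against 792, 831 and 958 early in SETD5 cells and 2049 and 3125 late in empty virus cells. Its SETD5 values all lay within a narrow range, and the change differed by -1.57 ± 0.18 (adjusted p = 0.00356). Idh3a, an isocitrate dehydrogenase subunit, differed by -1.54 ± 0.14 (adjusted p = 0.00115), with 673 and 739 late and 533, 1033 and 719 early in SETD5 cells. Branched-chain amino acid breakdown, a pathway that mature fat cells use, was called more negative for 14 of 22 genes (medians 0.46 and 1.53 in SETD5 and empty virus cells), and fatty acid oxidation and peroxisomes for 12 of 28 (0.42 and 1.12). In these 2 lists the late values of 14 and 18 genes did lie above all early values in SETD5 cells. Aldh6a1, which breaks down valine products, was at 751 and 739.7 late against 291, 153 and 246 early, and Cat, catalase, at 2221 and 840.4 against 619.6, 254 and 368. Of 64 genes of oxidative phosphorylation, 16 were called more negative with SETD5 and 16 had late values below all early ones, beside 5.62% and 18.5% of all genes, with medians of -0.13 and 0.33. Cholesterol synthesis gave a median of -0.30 in SETD5 cells and 0.72 in empty virus cells, with 9 of 20 called more negative. Cyp51, a demethylase of that pathway, was at 136 and 104 late and 141, 114 and 114 early in SETD5 cells, with 433 and 362 late in empty virus cells, and the windows overlapped in SETD5 cells. Insig1, the sterol sensor, was at 177 and 253 late against 240, 109 and 101 early in SETD5 cells and at 459.7 and 1334 late in empty virus cells.

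**Figure D2:**
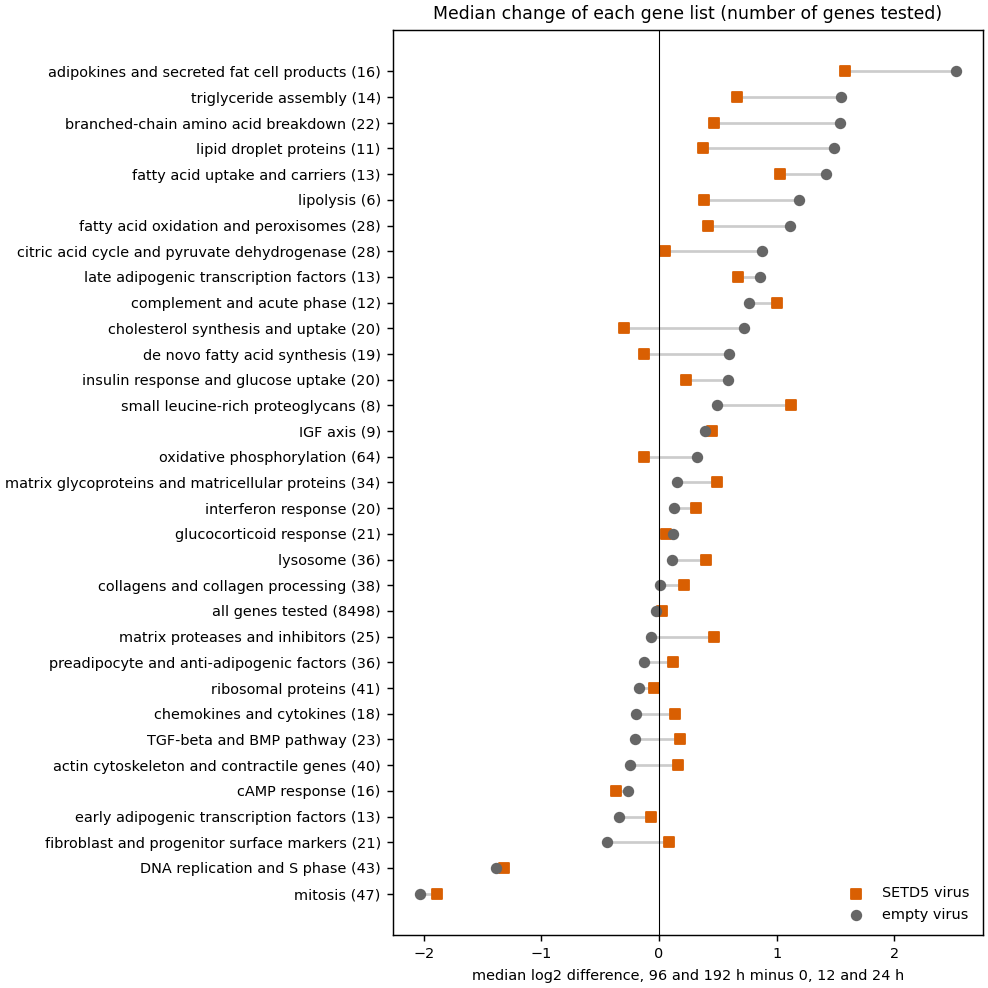
Median log2 difference, late minus early (x axis), of each gene list (y axis, number of genes tested in brackets), with orange squares for SETD5 cells and grey circles for empty virus cells, ordered by the empty virus median. Secreted fat cell products stand at 1.58 in SETD5 cells and 2.52 in empty virus cells, and mitosis at -1.89 and -2.03.

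The early part of the programme and its dividing cell genes were present with SETD5. Cebpb read 1260.4, 3229, 3256, 3302, 3353, 1976 and 1278 over the 7 hours in SETD5 cells, and Cebpd 243, 655, 772, 1108, 1102, 1060.1 and 252, so both were high in the mixture and back at the 0 h level by 192 h. For Cebpb the late hours were lower than the mixture hours (12 to 48 h) by 1.04 on the log2 scale (adjusted p = 0.0375). The late minus early difference between the viruses was -0.33 ± 0.14 for Cebpb, not called (adjusted p = 0.174). Mitosis genes were lower late than early in 47 of 47 tested, with windows that did not overlap in 45, against 18.5% of all genes, and a median of -1.89 beside -2.03 in empty virus cells. None of them was called in that comparison (limma; 33 at an unadjusted p under 0.05), and 7 were called lower without the 0 h array. DNA replication genes gave 40 of 43 and a median of -1.32 beside -1.38, and without the 0 h array 36 of them were called lower. Top2a, the topoisomerase of dividing cells, was at 315 and 113 late against 447, 1126 and 3650.4 early in SETD5 cells, with its peak at 24 h, and at 371 and 106 late in empty virus cells. Mcm5, a replication licensing subunit, was at 205 and 90 late against 451, 1274 and 1367 early, and Birc5, a mitotic regulator, at 119.7 and 42.2 against 308, 274 and 1594. The early values of all 3 exceeded both late values. The difference between the viruses was 0.21 ± 0.16 for Top2a, not called (adjusted p = 0.424). Bub1, Ube2c, Cdca5, Cep55, Pclaf and Pbk, other genes of dividing cells, had the next most negative values, with log2 differences between -2.45 for Bub1 and -2.29 for Pbk and no call. Among genes outside the cell cycle, Krt15, a keratin, was high in the mixture alone, with 18.2, 423, 319, 328, 275, 7.4 and 0.5 over the 7 hours. Aqp1, a water channel, was at 370.1 and 182 late against 1119, 1709 and 1330.4 early, and Bcat1, the cytosolic branched-chain transaminase, at 50.8 and 34.2 against 186, 411 and 239.6. Their late minus early differences were less negative than in empty virus cells, by 1.01 ± 0.24 and 0.88 ± 0.20 (adjusted p = 0.038 and 0.0356). With 1 hour left out at a time both calls were lost, with adjusted p up to 0.131 without 12 h and 0.126 without 12 h.

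**Figure D3:**
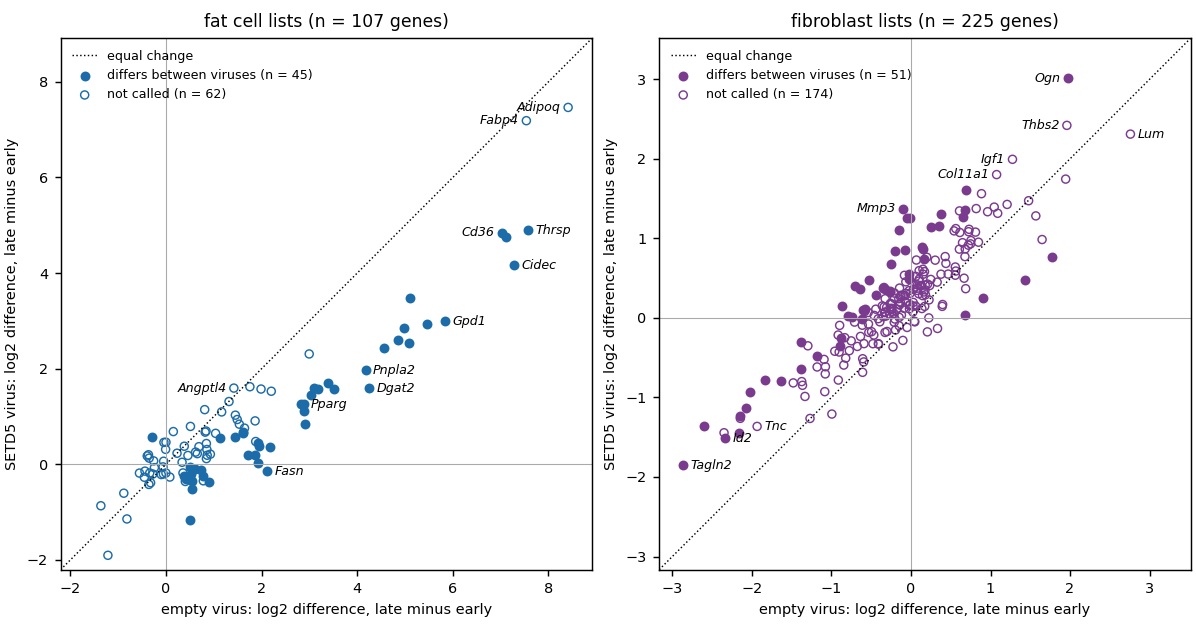
Log2 difference, late minus early, in SETD5 cells (y axis) against that in empty virus cells (x axis), for the tested genes of the fat cell lists (left) and of the fibroblast lists (right). Filled points were called as differing between the viruses and the dotted line marks equal change. Most fat cell genes lie below the line and most fibroblast genes above it. Of the fat cell genes 44 of 107 were called below it, beside 5.62% of all genes. Of the fibroblast genes 47 of 225 were called above it, beside 4.08%.

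Many genes of the unstimulated fibroblast dropped in the mixture and were back at the late hours. A return pattern was counted without a test, as a value of 50 or more at 0 h, a mean over 12 to 48 h at least 2-fold lower and a late mean at least 2-fold above that mean. In SETD5 cells 431 genes met the first conditions and 252 returned (2.97% of genes tested), against 492 and 163 (1.92%) in empty virus cells. Of the genes that dropped, 58.5% returned in SETD5 cells and 33.1% in empty virus cells. The filter read SETD5 arrays alone, so a gene under 50 at 12 and 24 h was tested only if a late SETD5 value reached 50. Genes that dropped and stayed low in SETD5 cells could thus be left out, so the shares do not compare the viruses on equal terms. Ifit1, with 97.9 at 0 h and 22.0 and 22.6 late in SETD5 cells, was left out. The same limit holds for the return counts of single lists. Both lines shared 125 returning genes, 49.6% of the SETD5 list and 76.7% of the empty virus list. Of the 252, 234 ended within 2-fold of their 0 h value, 13 ended more than 2-fold below and 5 more than 2-fold above, namely Cavin2, Stc1, Svep1, Itgbl1 and Plaat3. Against the mixture hours, 255 genes were called higher late in SETD5 cells (3.00%) and 108 lower (1.27%), a contrast that the return pattern itself uses. These counts were 0 without the 192 h array (646 and 293 at an unadjusted p under 0.05), 99 and 44 without 96 h, 15 and 9 without 24 h and 10 and 5 without 36 h. For the 16 genes named with a call against the mixture hours the adjusted p was 0.0712 to 0.38 without 192 h. On 9 lists of fibroblast genes (317 listed, 225 tested), 44 dropped and 33 returned in SETD5 cells, while 48 dropped and 19 returned in empty virus cells. Over all 225 the change was called more positive with SETD5 for 47 and more negative for 4, beside 4.08% and 5.62% of all genes. Medians were 0.19 in SETD5 cells and -0.10 in empty virus cells, beside 0.02 and -0.02 over all genes tested.

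Several secreted and structural proteins returned to their 0 h level or above it. Itgbl1, an integrin beta-like secreted protein, read 401, 113, 70.1, 61.7, 42.3, 1095 and 1054 at 0, 12, 24, 36, 48, 96 and 192 h in SETD5 cells, and 471 and 329 late in empty virus cells. Its late values were well above the 0 h value, the late hours rose over the mixture hours by 3.70 ± 0.29 (adjusted p = 0.0124), and the change differed between the viruses by 1.38 ± 0.18 (adjusted p = 0.00528). Ogn, the matrix proteoglycan osteoglycin, read 2164, 664, 85.4, 274, 1206, 3966 and 4625 over the 7 hours, lowest at 24 h and highest late, with 1325 and 2569 late in empty virus cells. Ogn differed between the viruses by 1.04 ± 0.22 (adjusted p = 0.0268), and its late minus mixture difference was 3.44 ± 0.89 with no call (adjusted p = 0.0725). Without 1 hour the adjusted p of Ogn between viruses reached 0.107 without 12 h. Cryab, a small heat shock protein, read 1154, 296, 84.3, 85, 188, 1359 and 1531, so the 0 h level was reached again at 96 h, and it rose over the mixture hours by 3.19 ± 0.47 (adjusted p = 0.0275). Clec3b, the plasminogen-binding protein tetranectin, went past its 0 h value of 39.7 to 158 and 369 late (difference to the mixture hours 3.67 ± 0.33, adjusted p = 0.0124). Fbln7, a fibulin of the matrix, read 141, 34.8, 6.6, 6.9, 0.6, 122 and 379.7, and Tinag, a basement membrane protein, 82.4, 6.2, 4.2, 1.0, 1.1, 94.2 and 251. Both were near 0 in the mixture and above the 0 h value at 192 h (differences 3.18 ± 0.54 and 3.18 ± 0.34, adjusted p = 0.0332 and 0.0165). Akr1c14, a steroid dehydrogenase, read 560.1, 7.7, 61, 121, 190, 787 and 759, with 258 and 301 late in empty virus cells, and was not called in either test (adjusted p = 0.064 against the mixture hours and 0.136 between viruses). Islr, a leucine-rich secreted protein, and Ccdc80, a matrix protein, returned to 312 and 666 and to 588 and 1786, beside 0 h values of 339 and 1081. At 192 h both were above the 0 h value. Plaat3 and Aoc3, a vascular amine oxidase made by fat cells, met the return pattern too but ended at 1525 and 907 in SETD5 cells and at 4584 and 3643 in empty virus cells at 192 h, so their late level was higher with the empty virus.

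**Figure D4:**
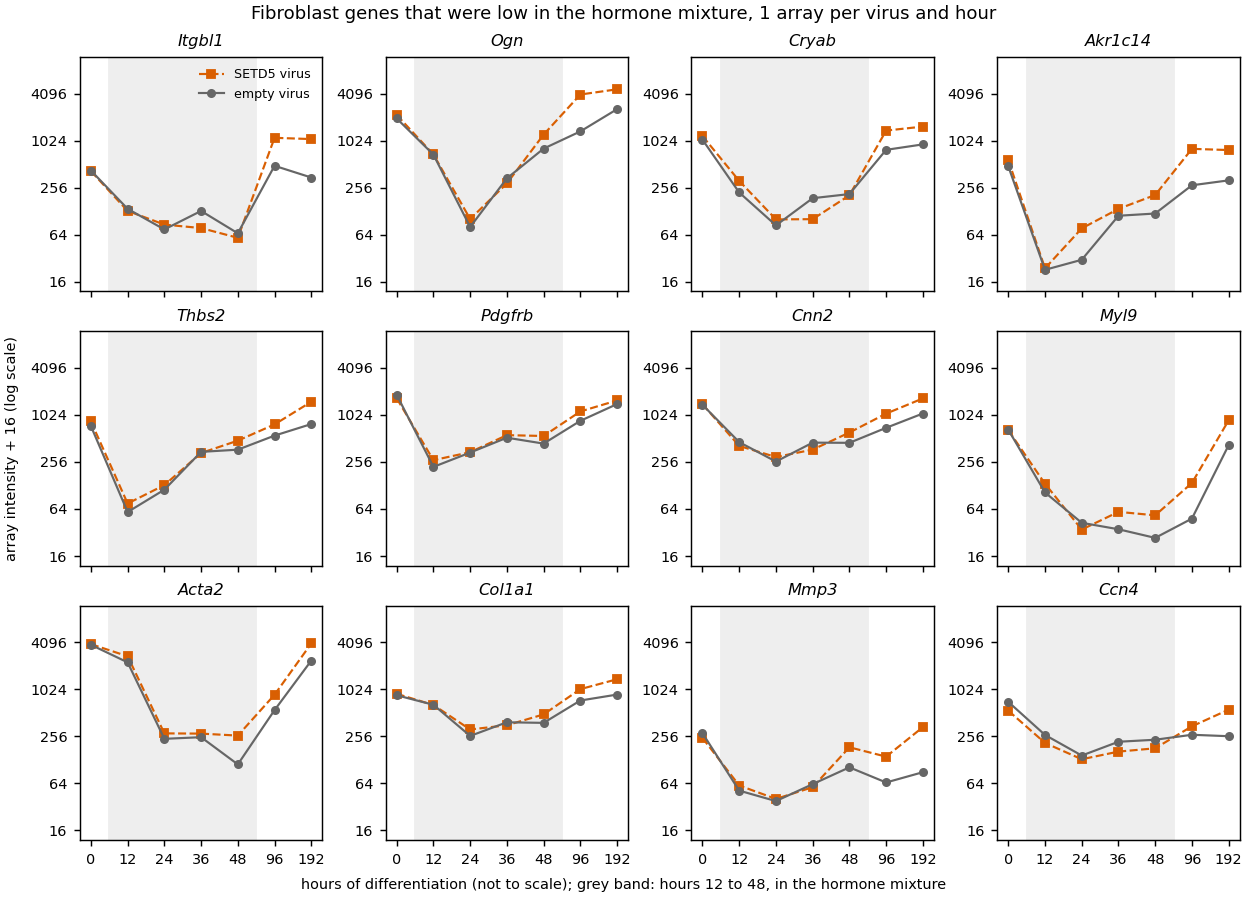
Array intensity plus 16 on a log scale (y axis) by hour of differentiation (x axis, categories) for 12 fibroblast genes that dropped in the mixture, drawn as orange squares for SETD5 cells and grey circles for empty virus cells. At 192 h Itgbl1 is at 1054 in SETD5 cells and 329 in empty virus cells, and Acta2 at 3931 and 2365.

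A minority of the actin and contractile genes followed the return pattern, most of them with a higher value at 192 h than at 96 h. Of 40 tested, 13 dropped in the mixture and 8 of these returned in SETD5 cells, a share near the 58.5% of all genes that dropped, and 6 of 13 returned in empty virus cells. Between the viruses 10 were called more positive with SETD5 (4.08% of all genes) and 1 more negative. Acta2, smooth muscle actin, read 3856, 2691, 263, 261, 245, 855 and 3931 over the 7 hours in SETD5 cells and 3780, 2246, 222, 233, 95.8, 538 and 2365 in empty virus cells. With SETD5 it was still low at 96 h and at its 0 h level at 192 h, and the difference between the viruses was 0.52 ± 0.14, just short of a call (adjusted p = 0.0536). Myl9, a regulatory myosin light chain, had 122 and 857 at 96 and 192 h and 637 at 0 h in SETD5 cells, with 32.2 and 404 late in empty virus cells (difference between viruses 1.26 ± 0.22, adjusted p = 0.0152). Cnn2, a calponin, was at 1048 and 1649 late, with 1388 at 0 h and 279.8 at 24 h, and Tpm1, a tropomyosin, at 646 and 1586, with 1777 and 265. Both were near or above the 0 h level again at 192 h and were called between the viruses (0.60 ± 0.15 and 0.75 ± 0.13, adjusted p = 0.0436 and 0.0158). Fhl2, a LIM protein, rose over the mixture hours by 1.82 ± 0.32 (adjusted p = 0.0359) with no call between the viruses (adjusted p = 0.291). Srf, the factor that drives many of these genes, was at 96.6 and 195 late against 159.5, 74.1 and 67.6 early, and its change differed by 0.52 ± 0.13 (adjusted p = 0.047). Tagln2, a transgelin, took another course, higher at 12 and 24 h than at 0 h and lower late. It was at 254 and 243 late against 571, 1294 and 1122 early in SETD5 cells, and at 147 and 77.9 late in empty virus cells. Leaving out 1 hour at a time ended the calls between viruses of Myl9, Cnn2, Tpm1 and Srf, with adjusted p up to 0.0673 without 0 h, 0.148 without 12 h, 0.0755 without 12 h and 0.149 without 0 h.

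Some of these genes are shown with the 250 bases before their RefSeq start (GRCm38.p6), because their change differed between the viruses and the window held a CArG box, the element that SRF binds (capitals; searched on both strands). The windows are chr2:156775214-156775463 (+ strand) for Myl9, chr10:79988350-79988599 (+ strand) for Cnn2 and chr17:46556163-46556412 (- strand) for Srf. The box starts 161 bases before the start in Myl9 and 56 in Cnn2, and Srf has boxes at 82 and 62. Of all 32851 windows 1.47% held a CArG box. The tested actin genes had 43 windows, of which 8 held one, in 7 of the 34 genes with a window.
Myl9: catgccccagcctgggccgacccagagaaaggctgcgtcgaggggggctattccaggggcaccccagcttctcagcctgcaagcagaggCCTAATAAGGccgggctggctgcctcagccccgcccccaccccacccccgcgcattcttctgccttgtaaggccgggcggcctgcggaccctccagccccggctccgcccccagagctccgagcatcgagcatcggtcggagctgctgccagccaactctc
Cnn2: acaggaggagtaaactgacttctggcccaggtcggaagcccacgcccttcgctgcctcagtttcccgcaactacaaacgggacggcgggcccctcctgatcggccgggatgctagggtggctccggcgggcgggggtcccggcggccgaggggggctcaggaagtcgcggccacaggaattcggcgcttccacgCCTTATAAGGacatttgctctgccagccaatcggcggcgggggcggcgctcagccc
Srf: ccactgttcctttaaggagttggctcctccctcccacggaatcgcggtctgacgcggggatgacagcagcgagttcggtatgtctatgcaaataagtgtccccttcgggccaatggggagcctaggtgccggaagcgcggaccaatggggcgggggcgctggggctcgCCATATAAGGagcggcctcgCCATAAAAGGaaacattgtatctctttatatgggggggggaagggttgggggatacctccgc

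Among the genes tested, more extracellular matrix genes returned with SETD5 than with the empty virus. The same held over all genes that dropped, of which 58.5% returned with SETD5 and 33.1% with the empty virus. Of 25 tested matrix proteases and inhibitors, 9 dropped and 8 returned in SETD5 cells, while 9 dropped and 3 returned in empty virus cells. The filter read SETD5 arrays alone, so members that stayed low there could be left out. Mmp9 was such a member, with 103 at 0 h and 36.1 and 47.6 late in SETD5 cells. In empty virus cells it had 99.2 at 0 h and 29.4 and 31.4 late. Of the 25, 9 were called more positive with SETD5, beside 4.08% of all genes. Mmp3, stromelysin, had 125 and 319 late in SETD5 cells with 228 at 0 h and 24.4 at 24 h, and 49.6 and 72.8 late in empty virus cells (difference between viruses 1.47 ± 0.24, adjusted p = 0.0124). Mmp14, a membrane metalloprotease, was at 1179.5 and 1531 late and 1285 at 0 h in SETD5 cells, against 798 and 711 late in empty virus cells, and Ctsk, the collagen-degrading cathepsin, at 436 and 701 and 536, against 260.4 and 311. All 3 reached or passed their 0 h level by 192 h with SETD5 and did not with the empty virus. Mmp13 and Plat, a collagenase and the tissue plasminogen activator, were called between the viruses too (1.30 ± 0.23 and 0.92 ± 0.16, adjusted p = 0.0172 and 0.0147). Among 34 matrix glycoproteins, 8 of 9 that dropped returned in SETD5 cells and 4 of 8 in empty virus cells. Of the 34, 10 were called more positive with SETD5, beside 4.08% of all genes. Ccn4, a matricellular protein, had 328 and 545 late and 529 at 0 h, against 252 and 241 late in empty virus cells (difference 1.03 ± 0.22, adjusted p = 0.0278). Thbs2, a thrombospondin, read 830, 59.2, 113, 317, 464, 758 and 1493 over the 7 hours, with 540.4 and 766 late in empty virus cells and no call between the viruses (adjusted p = 0.121). Sparcl1 ran the other way, with 351 and 314 late in SETD5 cells and 443 and 746 in empty virus cells (-1.01 ± 0.24, adjusted p = 0.0383). Ecm1, a matrix protein high in the mixture, was lower at the late hours than at the mixture hours by 2.30 on the log2 scale (adjusted p = 0.0331). When hours were left out in turn, the calls between viruses of Mmp3, Mmp13, Plat, Ccn4 and Sparcl1 were lost, with adjusted p up to 0.0578 without 0 h, 0.0732 without 12 h, 0.062 without 0 h, 0.106 without 12 h and 0.128 without 12 h.

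Collagens moved less. Of 38 tested collagens and processing enzymes, 4 dropped and 3 of these returned in SETD5 cells, while 6 dropped and 2 returned in empty virus cells. Of the 38, 2 were called more positive with SETD5, a share near the 4.08% of all genes. The median difference was 0.21 in SETD5 cells and 0.01 in empty virus cells. Col1a1, the main fibrillar chain, was at 1012 and 1359 late against 879.5, 628 and 297 early in SETD5 cells, and at 719 and 859 late in empty virus cells. It rose over the mixture hours by 1.46 ± 0.31 (adjusted p = 0.0494) with no call between the viruses (adjusted p = 0.0883). Col11a1, a minor fibrillar chain, rose over them by 1.96 ± 0.28 (adjusted p = 0.0256), and Lox, which crosslinks collagen, by 0.81 ± 0.13 (adjusted p = 0.0299). Lox was at 4508 and 4539.9 late, above its 0 h value of 2949.6. Col8a1 did not come back, with 15.6 and 64.7 late and 158 at 0 h. Of 8 small leucine-rich proteoglycans, 4 had late values above all early ones (15.4% of all genes) and 3 were called more positive with SETD5 (4.08%). Aspn, asporin, was at 2939 and 2956 late against 1539, 785 and 1941 early in SETD5 cells and at 2322 and 1851 late in empty virus cells (difference 0.88 ± 0.17, adjusted p = 0.02), a call lost when hours were left out (adjusted p up to 0.0849 without 12 h). Lum, lumican, was at 355 and 799 late in SETD5 cells and 843 and 2409 in empty virus cells, not called (-0.45 ± 0.32, adjusted p = 0.395).

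Surface markers and regulators of the preadipocyte gave a mixed picture. Pdgfrb, a growth factor receptor of mesenchymal cells, read 1656, 254, 326, 548, 534, 1118 and 1553 over the 7 hours and rose over the mixture hours by 1.70 ± 0.34 (adjusted p = 0.0444), with 844 and 1394 late in empty virus cells and no call between the viruses (adjusted p = 0.423). Of 21 surface markers 7 were called more positive with SETD5, beside 4.08% of all genes. Vcam1, an adhesion protein, was at 863 and 841 late in SETD5 cells and 378 and 462 in empty virus cells (1.10 ± 0.16, adjusted p = 0.00769), although at 1246 its 0 h value was not regained. Dlk1, a surface protein that holds preadipocytes back, read 2595, 2166, 2053, 1758, 885, 1123 and 2773 in SETD5 cells, with its lowest value at 48 h and the 0 h level again at 192 h. In empty virus cells it ended at 1813, and the change differed by 0.53 ± 0.13 (adjusted p = 0.0429). A dimmer probe set of Dlk1 gave a late minus early difference of 0.46 in SETD5 cells, where the one used had late values on either side of the early ones. Among other factors that oppose fat cell formation, Ddit3, a C/EBP partner that blocks DNA binding, was at 337 and 659.7 late, above the mixture hours by 1.60 ± 0.32 (adjusted p = 0.0454) but below its 0 h value of 1108. Zfp521, a zinc finger repressor of the adipocyte fate, was at 670.3 and 834 late in SETD5 cells and 438 and 369 in empty virus cells (0.71 ± 0.18, adjusted p = 0.0484). Id2, an inhibitor of helix-loop-helix factors, stayed low, at 101 and 259 late against 327, 714 and 520.2 early. Aebp1, a repressor and matrix protein, was at 172 and 227 late and 319 at 0 h in SETD5 cells and at 78.1 and 69.4 late in empty virus cells (1.25 ± 0.19, adjusted p = 0.0104). The calls between viruses of Dlk1 and Zfp521 were lost when hours were left out, with adjusted p up to 0.151 without 12 h and 0.161 without 192 h. Over the 36 tested genes of that list, 5 were called more positive with SETD5 and 1 more negative, beside 4.08% and 5.62% of all genes. In the IGF axis, Igf1 was at 764 and 1471 late against 609.9, 84.8 and 298 early and Igfbp3 at 113 and 154 against 15.2, 59.2 and 37.9, both with late values above all early ones.

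Of 20 tested interferon response genes, 12 dropped in the mixture and 7 of these returned in SETD5 cells, beside 58.5% of all genes that dropped, against 5 of 12 in empty virus cells, and none was called between the viruses (limma; 5 more positive and 2 more negative at an unadjusted p under 0.05). Ifit1, Usp18 and Gbp3, at 97.9, 72.4 and 68.3 at 0 h in SETD5 cells, also dropped. With late values up to 32.6 there they failed the filter, so these counts leave them out. Gbp2, a guanylate-binding protein, read 188, 3.3, 10.4, 12.8, 12.4, 59.2 and 131 over the 7 hours in SETD5 cells and 64.8 and 276 late in empty virus cells. It rose over the mixture hours by 2.05 ± 0.30 (adjusted p = 0.027) and did not regain its 0 h value. C1ra and C1s1, the proteases that start the complement cascade, had 552 and 863 and 1030.2 and 1344 late, with 606 and 997 at 0 h, and rose over the mixture hours by 2.02 ± 0.30 and 1.98 ± 0.28 (adjusted p = 0.0272 and 0.0256). Hp, the acute phase protein haptoglobin that fat cells also make, was at 250 and 201 late against 0.6, 12 and 52 early in SETD5 cells and 1252 and 1706 late in empty virus cells. Of 36 lysosomal genes, 9 were called more positive with SETD5, beside 4.08% of all genes, while 3 dropped in the mixture and 1 returned. Lgmn, the protease legumain, was at 340.4 and 383 late in SETD5 cells and 142 and 102 in empty virus cells (1.01 ± 0.19, adjusted p = 0.0206, and up to 0.0887 without 12 h).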

How the data were processed

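The deposited values were linear intensities of probe sets on Mouse Genome 430 2.0 arrays, 1 per virus and hour, which the authors computed as an average difference with GeneChip Analysis Suite 5.0. Each array had a 2% trimmed mean of 100. The probe set with the highest mean over the 14 arrays, among those annotated to 1 gene, stood for a gene. log2(intensity + 16) was fitted with limma 3.58.1 in R 4.3.3 (lmFit and eBayes, two-sided, Benjamini-Hochberg over 8498 genes, called at adjusted p under 0.05), with 3 residual degrees of freedom, or 4 against the mixture hours. The difference between viruses had hour as a block, because the labels give each hour in both viruses, and arrays of 1 hour deviated together from their window's mean over genes (r from 0.64 to 0.945). The p-values measure only the spread between these arrays, whose number limits the precision. The scripts were tested on simulated data. Named genes were the largest differences of each comparison (12 each way, 8 against the mixture hours, 5 each way between viruses), the 10 largest returns, the leading members of each list and a fixed set. Ccn4, Ddit3, Lipe, Mmp14, Srf, Svep1, Tpm1, Vcam1 and Zfp521 were added after their values were seen. Members and lists were chosen with earlier results of these data known. Other scalings, offsets, filters, probe sets, priors, windows and left-out arrays were tried.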

Additional observations from a re-analysis of the deposited data

Results flagged for a closer look

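A set of named genes had a late minus early change that differed between SETD5 and empty virus cells in limma's test of the difference, with hour as a block. All values are SETD5 minus empty on the log2 scale. With 1 hour left out at a time, 14 of the 33 calls were kept throughout. Without the hour block no gene was called. The change was more negative in SETD5 cells for genes of fat storage, fatty acid synthesis and mitochondria and a few others, at -3.12 for Cidec, -2.85 for Gpd1, -2.68 for Thrsp, -2.67 for Dgat2, -2.61 for Noct, -2.37 for Retn, -2.27 for Fasn, -2.18 for Cd36, -1.62 for Pparg, -1.57 for Pdhb, -1.54 for Idh3a and -1.01 for Sparcl1. In contrast, it was more positive for matrix, protease and surface genes, at 1.47 for Mmp3, 1.38 for Itgbl1, 1.30 for Mmp13, 1.26 for Myl9, 1.25 for Aebp1, 1.25 for Grem1, 1.15 for Cxcl5, 1.10 for Vcam1, 1.04 for Ogn, 1.03 for Ccn4 and 1.01 for Aqp1. The smaller positive values were 1.01 for Lgmn, 0.93 for Stc1, 0.92 for Plat, 0.88 for Aspn, 0.88 for Bcat1, 0.75 for Tpm1, 0.71 for Zfp521, 0.60 for Cnn2, 0.53 for Dlk1 and 0.52 for Srf.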

How the results depend on the processing

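All 74 values of single genes given with a comparison kept their direction under every alternative that recomputed them. The alternative with every probe set on its own gave counts of genes alone, so it did not check these values. Of 609 recomputed differences between viruses 120 lost a call and 15 gained one, and of 233 against the mixture hours 69 lost and 4 gained one. Late minus early in SETD5 cells, 14 of 112 lost a call and 4 gained one. The causes were not tested. For late minus early in SETD5 cells the number of genes called higher was 5 with a common median, 6 with an offset of 4, 1 with no filter and 0 with a trend over the 7 hours (307 at an unadjusted p under 0.05), and ran from 0 to 590 with 1 array left out, beside 0 to 426 called lower. For the difference between viruses, 25 were called more positive and 147 more negative with no filter. With 1 hour left out these counts ran from 31 to 1221 and from 115 to 1044. With no replicate block, that is without hour as a block, they were 0 and 0, since the spread between hours then enters the error. Against the mixture hours, 114 were called higher and 47 lower with no filter, and 0 to 195 and 0 to 71 with 1 array left out. In empty virus cells 11 were called higher with no filter, and 5 lower with quantile normalization, 1 with an offset of 64 and 1 with every probe set on its own. The return pattern held 105 genes in SETD5 and 55 in empty virus cells with an offset of 64, 732 and 458 at 1.5-fold, and 70 and 35 at 3-fold. The median of fatty acid uptake and carriers in SETD5 cells was 0.66 with an offset of 64, beside 1.03. With hours in place of replicates, the number of arrays limits every test here.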

Other observations

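Of 21 tested glucocorticoid response genes, 1 was called lower late than in the mixture in SETD5 cells, beside 1.27% of all genes. Both late values were below all mixture values for 5 of the 21 and above them for 4. Over all 8498 genes tested these counts were 1621 and 2023. Lcn2, the secreted protein lipocalin 2 and a glucocorticoid target, read 1.3, 1149, 1950.1, 1382, 1129, 301 and 10.1 over the 7 hours, and Dusp1, a phosphatase induced by glucocorticoid, 214, 1219, 1073, 1443, 980.2, 439 and 193, so both were near their 0 h level at 192 h. Glul, glutamine synthetase, was at 1981 and 544 at 96 and 192 h in SETD5 cells and at 2170.4 and 1555 in empty virus cells. Adm, the peptide adrenomedullin, was low in the mixture, with 115, 17.6, 11.4, 1.8, 25.3, 78.7 and 212 over the 7 hours. Stc1, the hormone stanniocalcin 1, was at 143 and 283 late against 82.4, 18.1 and 40.8 early in SETD5 cells and at 50 and 84 late in empty virus cells, a difference between viruses of 0.93 ± 0.15 (adjusted p = 0.012). Among signalling genes, Grem1, a BMP antagonist, was at 282 and 254 late in SETD5 cells and 183 and 85.5 in empty virus cells, with 891 at 0 h in SETD5 cells (difference 1.25 ± 0.24, adjusted p = 0.0206). Cxcl5, a chemokine, was at 79.7 and 158 late in SETD5 cells and 41.8 and 102 in empty virus cells, with 362 at 0 h in SETD5 cells (difference 1.15 ± 0.14, adjusted p = 0.0043). With 1 hour left out at a time the adjusted p of Stc1, Grem1 and Cxcl5 between viruses reached 0.0588 without 12 h, 0.0825 without 0 h and 0.0323 without 0 h. Cxcl13, another chemokine, was highest at 48 h, with 4.6, 25.3, 71.1, 489.8, 903, 229.6 and 41.3 in SETD5 cells. Between the late arrays, 104 genes were at least 2-fold higher at 192 h than at 96 h in SETD5 cells and 94 at least 2-fold lower, a comparison of 1 array with 1 and without a test.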
